A study of Mus musculus with 18 samples.

Results

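A set of 10 mouse genes associated with macrophages of injured liver were followed across 3 mutant lines: Trem2, Gpnmb, Lgals3, Spp1, Cd9, Cd63, Itgax, Tyrobp, Cd68 and Ccr2. They were chosen by name, with their signals in Nrf1 CKO livers already known, so the difference between Nrf1 CKO and Nrf1 control livers is given as a description, with no p-value, and the counts of calls in it support nothing. Probes were assigned through their transcript accession, and 9 of the 10 genes had a probe that passed the filter on dim signal, out of 17721 genes tested in all. The RefSeq table used to name probes held no entry for the accession of the Cd68 probe, so Cd68 was not analysed here. The selection also asked for signal above background in control livers: 8 genes met this on all 9 control arrays (Trem2, Lgals3, Spp1, Cd9, Cd63, Itgax, Tyrobp and Ccr2), whereas Gpnmb met it on 1 of 9 and passed the filter through the Nrf1 CKO group alone.

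TREM2 is a receptor on macrophages and microglia that binds lipids and cell debris and signals through the adaptor TYROBP (DAP12). In livers with damage or lipid overload, macrophages recruited from blood monocytes express this receptor together with GPNMB, a membrane glycoprotein of lysosomes and the cell surface, SPP1 (osteopontin), galectin-3 (Lgals3), the tetraspanins CD9 and CD63 and the integrin chain CD11c (Itgax). CCR2 is the receptor for the chemokine CCL2 that brings monocytes into tissue. Several of these genes are not confined to macrophages: Spp1, Lgals3, Cd9 and Cd63 are also active in bile duct and other liver cells.

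RNA of whole liver was hybridized to 18 single-colour Agilent arrays. The mice were female and 6 weeks old, and each of the 6 groups held 3 samples. Nrf1 CKO mice (Nrf1 dN/- with Alb-Cre, a recombinase that the albumin promoter drives in hepatocytes; mixed strain) were set against Nrf1 control mice (Nrf1 dN/+, mixed strain), which carry the dN allele too. Nrf2 KO mice (Nrf2 -/-, C57BL/6) were set against Nrf2 control mice (Nrf2 +/+, C57BL/6), and Keap1 KD mice (Keap1 KD/-, mixed strain) against Keap1 control mice (Keap1 KD/+, mixed strain), which carry the KD allele too. NRF1 (gene Nfe2l1) and NRF2 (Nfe2l2) are transcription factors of the stress response, and KEAP1 targets NRF2 for degradation.

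All levels are log2 of the processed signal over the 75th percentile of the array's signals, so that 1 unit is a doubling, and a level of 1 gene is not set against that of another. A gene was called at a Benjamini-Hochberg adjusted p under 0.05 over all 17721 genes. The targeted genes followed the labels: Nfe2l1 lay between −6.67 and −6.33 in Nrf1 CKO livers and between 3.58 and 3.93 in Nrf1 controls, Nfe2l2 between −5.90 and −3.16 in Nrf2 KO and between 3.13 and 3.52 in Nrf2 controls, and Keap1 between 1.75 and 1.87 in Keap1 KD and between 3.28 and 4.81 in Keap1 controls. The share of spots above background was 50% to 65.0% over the 18 arrays. Arrays of a group correlated at r = 0.973 to 0.991. The labels do not state that each sample is a different mouse, so a p-value here speaks of the spread among the samples, part of which may be technical.

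The sequences around the transcription starts of 5 of the genes are shown because these are the 4 genes with the largest differences in Nrf1 CKO livers and the 1 gene, Itgax, with an antioxidant response element core, the motif through which NRF1 and NRF2 act. Each run holds 250 bases before and 30 after the annotated start, 5′ to 3′ on the gene's own strand (plus for all 5), from RefSeq on GRCm38.p6. Capitals mark motif matches.
Trem2, chr17:48346151-48346430: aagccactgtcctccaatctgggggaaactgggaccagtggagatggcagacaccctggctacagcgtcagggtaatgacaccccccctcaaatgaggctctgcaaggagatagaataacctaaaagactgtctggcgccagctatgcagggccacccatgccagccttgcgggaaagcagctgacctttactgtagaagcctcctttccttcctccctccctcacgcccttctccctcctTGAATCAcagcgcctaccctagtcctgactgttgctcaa
Gpnmb, chr6:49036268-49036547: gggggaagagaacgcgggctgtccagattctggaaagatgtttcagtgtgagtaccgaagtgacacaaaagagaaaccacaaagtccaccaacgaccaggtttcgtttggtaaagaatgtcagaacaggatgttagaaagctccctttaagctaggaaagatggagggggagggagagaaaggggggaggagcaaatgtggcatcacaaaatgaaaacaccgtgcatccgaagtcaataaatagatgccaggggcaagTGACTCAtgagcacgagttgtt
Lgals3, chr14:47373610-47373889: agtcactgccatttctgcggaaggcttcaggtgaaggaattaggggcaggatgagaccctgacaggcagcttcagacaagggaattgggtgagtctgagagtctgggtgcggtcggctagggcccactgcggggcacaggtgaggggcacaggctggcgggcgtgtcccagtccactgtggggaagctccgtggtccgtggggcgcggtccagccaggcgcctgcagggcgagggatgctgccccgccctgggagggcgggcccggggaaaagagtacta
Cd63, chr10:128909095-128909374: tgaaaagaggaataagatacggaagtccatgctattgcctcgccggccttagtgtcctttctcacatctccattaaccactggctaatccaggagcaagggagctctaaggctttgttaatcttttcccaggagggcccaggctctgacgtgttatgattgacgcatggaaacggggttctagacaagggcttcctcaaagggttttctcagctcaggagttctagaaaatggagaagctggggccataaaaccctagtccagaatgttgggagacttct
Itgax, chr7:128129300-128129579: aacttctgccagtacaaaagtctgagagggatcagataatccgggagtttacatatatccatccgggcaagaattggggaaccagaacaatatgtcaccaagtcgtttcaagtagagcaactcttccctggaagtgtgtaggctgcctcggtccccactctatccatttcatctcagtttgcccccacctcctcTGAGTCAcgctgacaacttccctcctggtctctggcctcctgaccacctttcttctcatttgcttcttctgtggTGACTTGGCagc

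Motifs were searched on both strands in windows of 300 bases, 250 before and 50 after the start, for all 32851 windows of the RefSeq table, which held 10 windows for 9 of the 10 genes (all but Tyrobp, Spp1 with 2). The AP-1 motif was searched in the loose form TGANTCA, with any base at its centre. It was present in 4 of the 10 windows, against 7.8% of all windows. In the Trem2 window it stood as TGAATCA at bases 242 to 248, with A at the centre where the other windows have G or C. It stood as TGACTCA at bases 259 to 265 of the Gpnmb window (within the transcribed part). In Itgax it was TGAGTCA at bases 195 to 201, and the Cd68 window also held TGAGTCA. The antioxidant response element core TGACNNNGC was present in 1 of the 10, as TGACTTGGC at bases 269 to 277 of Itgax, against 12.4% of all windows. It does not overlap the AP-1 match of that window. The E-box CACGTG of the lysosomal regulators MITF and TFEB was in none of the 10 and in 7.2% of all windows, and the PU.1 core GAGGAAGT was in 1 window of Spp1 and in 3.2% of all. The runs shown for Lgals3 and Cd63 hold no match to any of the 4. A match describes letters in a window and is no evidence of binding.

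In Nrf1 CKO livers Trem2, Gpnmb, Lgals3 and Cd63 stood above every Nrf1 control liver, while Cd9, Itgax, Tyrobp and Spp1 were higher on average with overlapping groups and Ccr2 was not higher. These values were in view when the genes were chosen. The receptor gene Trem2 was at 2.18, 3.12 and 3.61 in Nrf1 CKO livers, against −1.40, −1.02 and −1.12 in Nrf1 control livers. All 3 Nrf1 CKO livers also lay above the highest of the 9 control livers of the study (−0.60). The means were 2.97 ± 0.73 in Nrf1 CKO and −1.18 ± 0.20 in Nrf1 control livers (SD, n = 3 each), a log2 difference of 4.15 (SE 0.33) or 17.8-fold, and the other Trem2 probe gave 4.11.

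Gpnmb was at −1.90, −0.88 and 0.33 in Nrf1 CKO livers, above background on all 3 arrays, and at −6.80, −6.10 and −6.97 in Nrf1 control livers, above background on none. Set against the lowest signals above background on the control arrays, the Nrf1 CKO mean was 13.3-fold higher. That limit is the dimmest probe above background on each array, so 13.3-fold is no strict minimum. After normexp background correction the log2 difference was 1.81. A second Gpnmb probe was above background on none of the 18 arrays and has no level to compare. The Gpnmb difference thus rests on 1 probe.

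Lgals3, which encodes the carbohydrate-binding galectin-3, was at 2.59, 3.01 and 3.49 in Nrf1 CKO livers, against 0.29, 1.59 and 0.20 in Nrf1 control livers. The groups did not overlap, and Nrf1 control 2 was the highest of its group. The log2 difference was 2.34 (SE 0.33), or 5.05-fold. Cd63, a tetraspanin of late endosomes and lysosomes, was at 2.70, 3.62 and 4.48 in Nrf1 CKO livers, against 1.52, 1.77 and 1.56 in Nrf1 control livers. The Nrf1 CKO livers were spread more widely (SD 0.89) than the Nrf1 controls (SD 0.14), with every one of them higher, and the log2 difference was 1.98 (SE 0.34), or 3.96-fold.

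Spp1, the gene of the secreted protein osteopontin, was at 3.48, 4.18 and 5.16 in Nrf1 CKO livers, against 3.01, 3.42 and 3.52 in Nrf1 control livers. The lowest Nrf1 CKO liver lay just below the highest control, and the log2 difference was 0.96 (SE 0.39). Itgax, the CD11c chain of macrophages and dendritic cells, was at −1.44, −0.14 and −0.09 in Nrf1 CKO livers, against −2.55, −0.52 and −2.58 in Nrf1 control livers. Here too Nrf1 control 2 stood apart, above the lowest Nrf1 CKO liver, and the log2 difference was 1.32 (SE 0.49).

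Tyrobp, the adaptor through which TREM2 signals, was at 2.60, 3.38 and 3.29 in Nrf1 CKO livers, against 2.06, 3.27 and 2.06 in Nrf1 control livers, a log2 difference of 0.63 (SE 0.30). Nrf1 control 2 again reached the level of the Nrf1 CKO livers. The tetraspanin Cd9 was at 3.18, 2.94 and 3.31 in Nrf1 CKO livers, against 2.42, 2.49 and 3.12 in Nrf1 control livers, a difference of 0.47 (SE 0.26). The chemokine receptor Ccr2 was at −4.05, −2.38 and −2.20 in Nrf1 CKO livers, against −0.77, −2.91 and −4.12 in Nrf1 control livers, and its difference of −0.28 (SE 0.67) was smaller than its error.

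**Figure D1:**
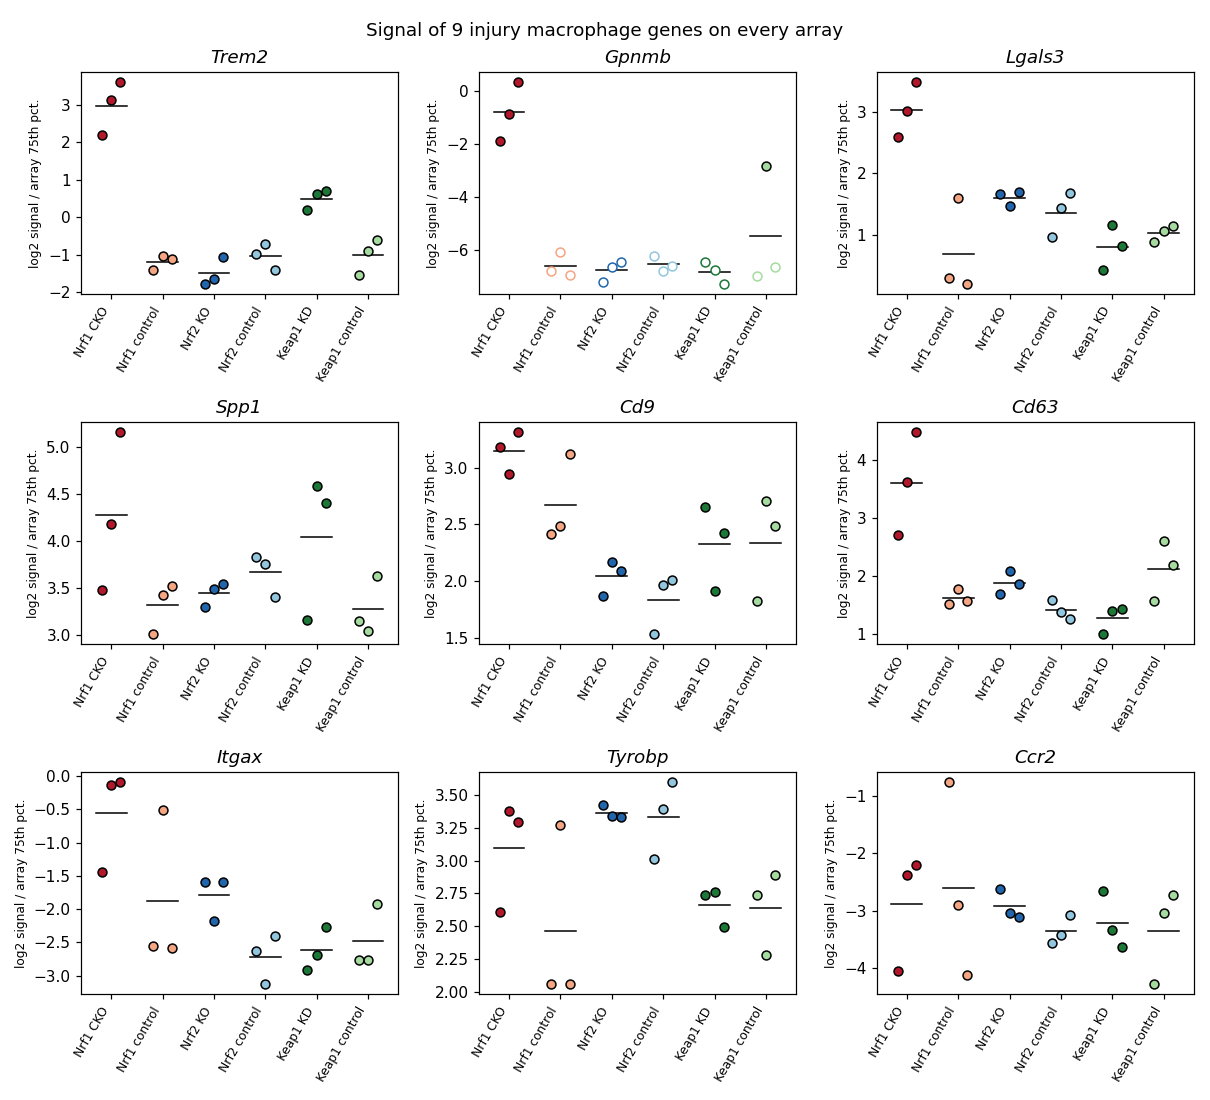
Log2 level (signal over the array's 75th percentile, y axis, own scale in each panel) of 9 genes on each of 18 arrays, by group (x axis, mutant left of its control). Points are arrays, open where the probe was not above background, and bars are group means; the 3 Nrf1 CKO livers stood above the Nrf1 control livers for Trem2, Gpnmb, Lgals3 and Cd63, and the Keap1 KD livers above their controls for Trem2.

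Of the 9 genes, 4 were called higher and 0 lower in Nrf1 CKO livers, where 18.9% of all genes were called and 7.99% were called higher. The groups did not overlap for 4 of 9, and for 43.4% of all genes. The median difference of the 9 was 1.32, beside −0.09 over all genes, and 8 of 9 were above 0. Since the genes were selected on this contrast, nothing is read from these counts.

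Within the Nrf1 CKO group most of the 9 genes ran in the same order. Nrf1 CKO 1 had the lowest level of 8 of the 9 genes and Nrf1 CKO 3 the highest of 8. The level summed over the 9 genes (linear, in units of the 75th percentile) was 44.0, 66.9 and 104 in Nrf1 CKO livers, against 22.7, 33.7 and 29.1 in Nrf1 control livers. The share of spots above background ran in the same order, at 57.5%, 58.6% and 60.1% on the Nrf1 CKO arrays, and was 52.3%, 52.6% and 54.7% on the Nrf1 control arrays. Its part in the result was not tested.

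All Nrf1 CKO arrays lay on slide 2, which held 1 of the 3 Nrf1 control arrays (slide 1 held the others), and all 6 shared a scan date. Within slide 2 the difference was 4.09 for Trem2, 6.15 for Gpnmb, 2.83 for Lgals3 and 2.04 for Cd63, as large as over both slides or larger but for Trem2. It was 0.02 for Cd9, against 0.47 over both slides. For Ccr2 the sign changed, with 1.24 within slide 2 against −0.28 over both slides. The Ccr2 difference was also above 0 (0.64) without Nrf1 control 1. With slide as a block 2 of the 9 genes were called, Trem2 and Gpnmb, in a fit that called 65 genes in all. Without Nrf1 control 2, 6 of the 9 were called (Itgax and Tyrobp added), and without Nrf1 CKO 1 likewise 6 (Spp1 and Itgax added).

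In Nrf2 KO livers none of the 9 genes was called, in a comparison that called 11 of 17721 genes (0.0621%) with limma. None of the 9 reached an unadjusted p under 0.05 either, which 1576 of all genes did. Trem2 was at −1.77, −1.65 and −1.06 in Nrf2 KO livers, against −0.98, −0.71 and −1.40 in Nrf2 control livers. The groups overlapped, and the log2 difference of −0.47 (SE 0.33, 95% interval −1.18 to 0.25, limma adjusted p = 0.749) did not pass the test. Gpnmb was above background on none of the 6 arrays. No Nrf2 KO array shared a slide or scan date with an Nrf2 control, so genotype and batch cannot be told apart within this line.

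Cd63 was at 1.69, 2.08 and 1.86 in Nrf2 KO livers, against 1.58, 1.38 and 1.25 in Nrf2 control livers, a difference of 0.47 (SE 0.34, limma adjusted p = 0.752). Itgax was at −1.59, −2.17 and −1.60 in Nrf2 KO livers, against −2.62, −3.13 and −2.41 in Nrf2 control livers, a difference of 0.93 (SE 0.49, limma adjusted p = 0.619). These were the 2 genes of the 9 whose groups did not overlap, which held for 20.8% of all genes, and neither passed the test. Lgals3 (0.25), Spp1 (−0.23), Cd9 (0.20), Tyrobp (0.03) and Ccr2 (0.43) had log2 differences within 1 SE of 0, with limma adjusted p from 0.879 to 0.985. The median difference of the 9 was 0.20, beside 0.01 over all genes.

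In Keap1 KD livers 1 of the 9 genes was called, Trem2, where 5.52% of all genes were called. Trem2 was at 0.19, 0.62 and 0.69 in Keap1 KD livers, against −1.54, −0.89 and −0.60 in Keap1 control livers. Every Keap1 KD liver lay above every Keap1 control and above all 9 control livers of the study. The gene rose by a log2 difference of 1.51 (SE 0.33, 95% interval 0.80 to 2.22, limma adjusted p = 0.0165), or 2.85-fold, with means of 0.50 ± 0.27 in Keap1 KD and −1.01 ± 0.49 in Keap1 control livers (SD, n = 3 each). The other Trem2 probe gave 1.57.

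No other member was called in this line. Gpnmb was above background on 0 of 3 Keap1 KD arrays and on 1 of 3 Keap1 control arrays, where Keap1 control 2 was at −2.83. Cd63 was at 0.99, 1.38 and 1.42 in Keap1 KD livers, against 1.56, 2.60 and 2.18 in Keap1 control livers. Its difference of −0.85 (SE 0.34) had an unadjusted p of 0.025 and a limma adjusted p of 0.201, so that it was not called, although the groups did not overlap. Groups did not overlap for 2 of the 9 genes (Trem2 and Cd63) and for 17.0% of all genes.

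Spp1 was at 3.15, 4.58 and 4.40 in Keap1 KD livers, against 3.14, 3.04 and 3.62 in Keap1 control livers. Keap1 KD 2 and Keap1 KD 3 stood above all controls and Keap1 KD 1 did not. The difference of 0.78 (SE 0.39) did not pass (limma adjusted p = 0.335). Tyrobp was at 2.74, 2.76 and 2.49 in Keap1 KD livers, against 2.74, 2.28 and 2.89 in Keap1 control livers, a difference of 0.03 (SE 0.30, 95% interval −0.61 to 0.66, limma adjusted p = 0.982). The differences of Lgals3 (−0.23), Cd9 (−0.01), Itgax (−0.13) and Ccr2 (0.14) were all smaller than their errors. The median of the 9 was −0.01, beside 0.001 over all genes. Scaling to the array median in place of the 75th percentile moved the median of all genes to 0.29 and that of the 9 to 0.28, and turned the small differences of Lgals3 (0.07), Cd9 (0.28) and Itgax (0.16) above 0, while Trem2 stood at 1.80 there.

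The call of Trem2 in Keap1 KD livers was lost under several settings. It was lost after normexp background correction (1.04, limma adjusted p = 0.0663) and when the Keap1 KD and Keap1 control arrays were fitted by themselves (1.51, adjusted p = 0.0756). The 3 Keap1 KD arrays lay on slides 6, 6 and 7 and the 3 Keap1 controls on slides 3, 5 and 7. The single pair on slide 7 differed by 1.29, and within scan date 4, which held 1 Keap1 KD and 2 Keap1 control arrays, the difference was 1.43. With slide as a block the log2 difference was 1.07 (limma adjusted p = 0.393), and it was 1.26 when scan date was the block (adjusted p = 0.194), so that the direction held and the call did not. The call was also lost without Keap1 control 1 (1.24, adjusted p = 0.0579) and without Keap1 KD 3 (1.41, adjusted p = 0.0599). The share of spots above background was lower on the Keap1 KD arrays (50% to 55.5%) than on the Keap1 control arrays (56.3% to 65.0%), and within the Keap1 KD group it was 50%, 54.0% and 55.5% beside Trem2 levels of 0.19, 0.62 and 0.69. Its part in the Trem2 result was not tested.

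**Figure D2:**
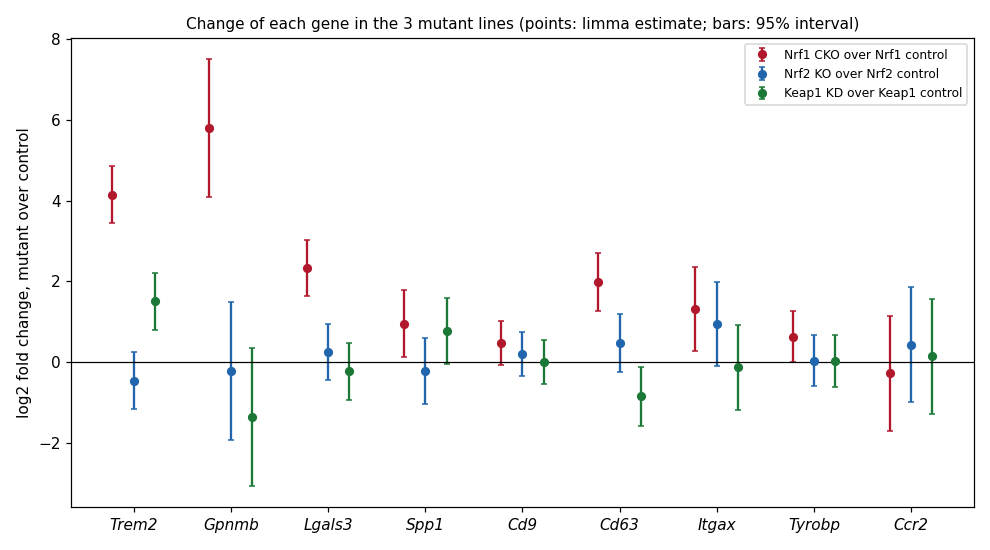
Log2 fold change of each of 9 genes (x axis) in each mutant over its own control (y axis), with points for the limma estimate and bars for its 95% interval. In the Keap1 KD comparison Trem2 (1.51) is the gene whose interval lies above 0. The genes were chosen with their Nrf1 CKO values known, so the Nrf1 CKO points (Trem2 at 4.15) and intervals are a description. The fitted Gpnmb values rest on arrays below background.

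The Keap1 KD and Nrf2 KO effects, which share no control livers, were compared directly. Trem2 differed by 1.97 between them (1.51 in Keap1 KD and −0.47 in Nrf2 KO livers, SE 0.47, limma adjusted p = 0.0374), and it was the 1 gene of the 9 that passed, where 3.09% of all genes did. Cd63 came next, with a difference of −1.32 (SE 0.48, unadjusted p = 0.0151, limma adjusted p = 0.159). The Nrf2 KO effect in these differences cannot be told apart from slide and scan date within its line. The Keap1 and Nrf2 lines also differ in strain and in the genotype of their controls, and the part of either was not tested. The Trem2 call was lost under 6 of 12 other settings of the analysis, among them slide as a block (2.14, adjusted p = 0.251) and quantile normalization (1.98, adjusted p = 0.0592), and its value stayed between 1.32 and 2.51 in all 12. It was also lost on leaving out any 1 of 8 arrays (Nrf2 controls 1, 2 and 3, Nrf2 KO 1 and 2, Keap1 control 1, Keap1 KD 2 and 3), with adjusted p up to 0.093.

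The deviations of each array from its group mean were compared across all 18 arrays for the 8 genes above background on all of them, as a description of how the genes vary within groups. Over their 28 pairs the median Pearson's r was 0.28 and 22 pairs were above 0, against a median of 0.01 over all pairs of 13745 genes. High values of r fell in a pair of blocks. Lgals3, Tyrobp and Itgax varied together, with r of 0.82 for Lgals3 and Tyrobp and 0.81 for Itgax with each of them. Trem2, Cd63 and Spp1 varied together as well, with r of 0.81 for Trem2 and Cd63, 0.78 for Trem2 and Spp1 and 0.72 for Spp1 and Cd63. Trem2 and its adaptor Tyrobp were at r = 0.29, and Cd9 was below 0 with 5 of its 7 partners. The arrays share scaling and the Nrf1 CKO group holds the widest spread for several of these genes.

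**Figure D3:**
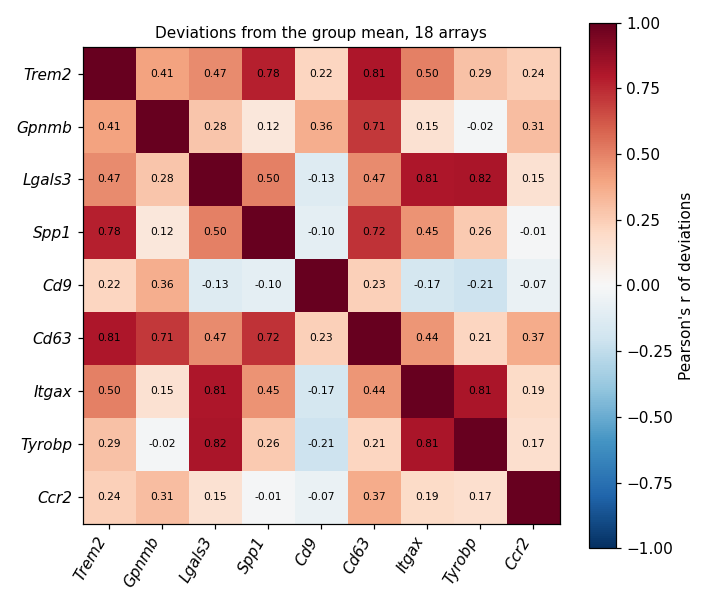
Pearson's r between genes (both axes) of the deviation from the group mean over 18 arrays, in colour from −1 to 1 with the value printed. Trem2, Spp1 and Cd63 form one block of high r (0.72 to 0.81) and Lgals3, Itgax and Tyrobp another (0.81 to 0.82); Gpnmb was above background on 4 arrays, so its row rests mostly on values below background.

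The genes whose deviations were most like the mean of these 8, among 10971 genes above background on all 18 arrays, were the cation channel gene Trpv2 (r = 0.95), Prmt2, an arginine methyltransferase gene (0.89), S100a11, a calcium-binding protein gene (0.89), Exoc3l4 (0.89), the macrophage chemokine gene Ccl6 (0.89) and the phosphatase gene Ptp4a3 (0.89), over 18 arrays.

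Genes that work with the 9 were described from a list of 24 partners (ligands, adaptors and downstream kinases of TREM2, receptors of SPP1, ligands of CCR2, integrin and tetraspanin partners), of which 21 were tested. In Nrf1 CKO livers 4 were called higher, 1 lower and 16 not, with a median of 0.45 (1 higher and 0 lower with array-median scaling, 6 and 0 after quantile normalization, 7 and 0 after normexp). Over all genes 7.99% were called higher in Nrf1 CKO livers, and 1932 of 17721 were called lower. The partners and the lists below were chosen with earlier results of these data known. The CCR2 ligand Ccl2 was higher by a log2 difference of 3.12 (SE 0.58). Ccl12, also a CCR2 ligand, was 1.62-fold higher when set against the same limit as Gpnmb. Itgb2, the chain that pairs with CD11c, was higher by 1.06 (SE 0.34). The groups overlapped for Ccl12 and Itgb2. The 1 gene called lower was Apoe, a lipid-carrying ligand of TREM2, at −0.58 (SE 0.18), named after its value was seen, and it was not called under the other 3 scalings. Whole-liver Apoe comes largely from hepatocytes. None of the 21 was called in Nrf2 KO livers (median −0.09) or in Keap1 KD livers (median −0.14).

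Of 28 tested lipid and lysosome genes of TREM2 macrophages, 8 were called higher in Nrf1 CKO livers, where 7.99% of all genes were. The median of the 28 was 0.08 (0.45 after quantile normalization and −0.03 with array-median scaling). The macrophage elastase Mmp12 was above background on 3 Nrf1 CKO and 0 Nrf1 control arrays. It was 11-fold higher when set against the same limit as Gpnmb. Anxa2, which encodes the membrane-binding annexin A2, was higher by 2.47 (SE 0.41), and Capg, an actin-capping protein gene of macrophages, by 2.41 (SE 0.32). None was called in Nrf2 KO (median 0.07) or Keap1 KD livers (median −0.03).

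General macrophage markers were mostly not called in Nrf1 CKO livers. Of 19 tested pan-macrophage markers 2 were called higher and 0 lower, where 7.99% of all genes were called higher. The 2 were Lyz2 (lysozyme, 1.34, SE 0.39) and Cybb (a subunit of the phagocyte oxidase, 1.08, SE 0.35). The median was 0.49, beside −0.09 over all genes, and 16 of the 19 markers were above 0. Their summed level was 107, 181 and 145 in Nrf1 CKO livers, against 101, 192 and 90.3 in Nrf1 control livers, so that the groups overlapped and Nrf1 control 2 was the highest of the 6. Of 14 resident Kupffer cell markers 4 were called higher, led by the scavenger receptor Marco (2.18, SE 0.67) and by Fabp7 (2.13, SE 0.41), and 1 lower, the scavenger receptor Cd163 (−1.50, SE 0.37). Their summed level was 254, 479 and 286 in Nrf1 CKO livers, against 193, 253 and 173 in Nrf1 control livers. In whole liver, more cells of a type and more RNA per cell cannot be told apart.

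Monocyte markers were called higher for 2 of 10 in Nrf1 CKO livers (1 of 10 with array-median scaling), where 7.99% of all genes were. The 2 were Nr4a1 (2.35, SE 0.58) and Plac8 (0.87, SE 0.26), and the groups overlapped for Plac8. Nr4a1 had an uncalled difference of 2.10 in Nrf2 KO livers (limma adjusted p = 0.28). The summed level of the monocyte markers was 67.5 to 85.6 in Nrf1 CKO and 45.7 to 65.7 in Nrf1 control livers. Dendritic cell markers were called for 1 of 10, Siglech, which was above background on 3 Nrf1 CKO and 0 Nrf1 control arrays. Their summed level was 21.3, 42.3 and 40.2 in Nrf1 CKO livers, against 28.8, 109 and 34.7 in Nrf1 control livers, with Nrf1 control 2 again the highest. Neutrophil markers were called for 0 of 7 and lymphocyte markers for 1 of 12 (Cd8a, 1.16, SE 0.38).

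Markers of other liver cells also differed in Nrf1 CKO livers, where 7.99% of all genes were called higher and 1932 of 17721 lower. Stellate cell and fibroblast markers were called higher for 14 of 15, with a median of 1.09, among them the collagen gene Col1a1 (2.21, SE 0.48), the matrix proteoglycan gene Lum (1.75, SE 0.24) and the protease inhibitor gene Timp1 (1.61, SE 0.42). Their summed level was 143 to 211 in Nrf1 CKO and 94.7 to 121 in Nrf1 control livers. Cholangiocyte markers were called for 0 of 9, with a median of 0.67 and 8 of 9 above 0. Their summed level was 10.5, 9.1 and 28.6 in Nrf1 CKO livers, against 14.7 to 16.9 in Nrf1 control livers. In this sum Nrf1 CKO 3 stood highest and the other Nrf1 CKO livers lay below all controls. With 8 of 9 differences above 0, the sum does not describe the markers as a set. Sinusoidal endothelial markers were called lower for 1 of 12, the hyaluronan receptor Lyve1 (−2.42, SE 0.26). Hepatocyte markers were called lower for 9 of 15, with a median of −0.79 (3 called lower, median −0.37, after quantile normalization), led by the amino acid and urea cycle enzymes Hpd (−1.45, SE 0.29), Ass1 (−1.38, SE 0.39) and Tat (−1.33, SE 0.39), and their summed level was 1940 to 2880 in Nrf1 CKO and 3270 to 4060 in Nrf1 control livers. The part of these cell types in the levels of the 9 genes was not tested.

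In the other lines few of these markers were called. In Nrf2 KO livers 0 of the tested genes of any of the 12 lists were called, in a comparison with 11 calls over all genes. Uncalled differences were above 0 for 7 of 7 neutrophil (median 0.92), 10 of 12 lymphocyte (0.46) and 9 of 10 dendritic cell markers (0.34). The same held for 16 of 19 pan-macrophage (0.18) and 8 of 10 monocyte markers (0.27), but for 6 of 14 Kupffer cell markers (−0.09). All of these differences were uncalled. Differences were above 0 for 5 of 15 stellate cell and fibroblast markers (−0.07) and 8 of 21 partners (−0.09). The summed neutrophil markers were 6.03 to 12.5 in Nrf2 KO and 3.32 to 5.09 in Nrf2 control livers. In Keap1 KD livers Lyve1 was called higher (1.09, SE 0.26, limma adjusted p = 0.0242) and Lum lower (−0.87, SE 0.24, limma adjusted p = 0.0443). The Lum call was lost after quantile normalization, after normexp and with array-median scaling. The Lyve1 call was lost after quantile normalization. None of the macrophage, Kupffer or monocyte markers was called in Keap1 KD livers. The pan-macrophage markers had a median of −0.26 there, with 1 of 19 above 0, and a summed level of 72.2 to 87.3 in Keap1 KD and 68.5 to 123 in Keap1 control livers. With array-median scaling, which raised the median of all genes to 0.29, that median was 0.04 with 13 of 19 above 0, and the Keap1 KD medians of the partners (0.15), lipid and lysosome genes (0.26) and monocyte markers (0.07) were above 0 too. The summed Kupffer cell markers were 286 to 330 in Keap1 KD and 160 to 274 in Keap1 control livers, higher in all 3. The median over the 14 genes was 0.01, with 7 of 14 above 0, so the sum does not describe the markers as a set. Marco, not called here, had a difference of 2.14 (SE 0.67, limma adjusted p = 0.0807), near its 2.18 in Nrf1 CKO livers. The part of the Kupffer cell markers in the Trem2 result was not tested.

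**Figure D4:**
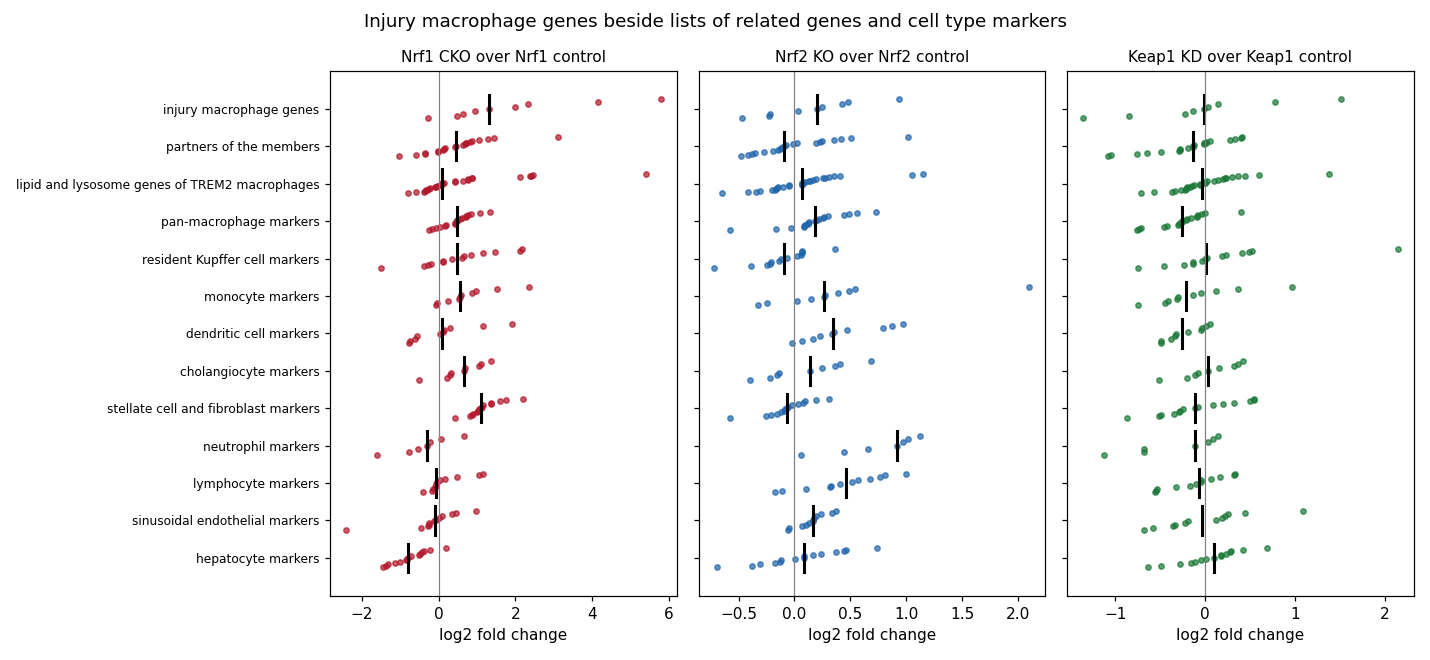
Log2 fold change (x axis, own scale in each panel) of the 9 genes and of 12 lists of related genes and cell type markers (rows) in each mutant over its own control. Points are genes and bars are medians; in Nrf1 CKO livers the medians are 1.32 for the 9 genes, 1.09 for stellate cell and fibroblast markers, 0.49 for pan-macrophage markers and −0.79 for hepatocyte markers.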

How the data were processed

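Total RNA of livers was labelled with Cy3 and hybridized to single-colour arrays, per the labels. Per the file headers, images were read with Agilent Feature Extraction 10.7.3.1, and the deposited processed signal intensities are background-subtracted and not scaled between arrays. The deposited flags for background, saturation and outliers are other output of that software, per the file headers. Values in the authors' series table equalled these intensities at 810324 of 810324 entries.

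Control and outlier spots were left out, log2 intensities of a probe's spots averaged, and the array's 75th percentile subtracted. Of 41174 probes, the 23554 that exceeded background throughout some group (3 of 3 arrays) were tested, and the brightest probe of a gene was used. RefSeq names were found for 26718 probes and not for 14456, which kept the array's name. The means of the 6 groups were fitted over 18 arrays by limma 3.58.1, under R 4.3.3 (12 residual and 3.07 prior degrees of freedom), with Benjamini-Hochberg adjustment over 17721 genes. The number of arrays limits the precision. The fit was tested on simulated data.

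The members and gene lists were chosen with earlier results of these data known. The genes named are all members, up to 3 called genes per list and comparison with the greatest change, and the 6 most alike genes. A result in the list of lipid and lysosome genes is not reported here. Replicate numbers in the labels do not pair the samples: correlations of deviations of same-numbered arrays ran from −0.36 to 0.15. Alternatives, described below, covered scaling, background, filters, probe choice, fitted samples, slide (7), scan date (4), replicate number and left-out arrays.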

Additional observations from a re-analysis of the deposited data

Results flagged for a closer look

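Groups of 3 are too small for a check of single arrays that stand apart, so the results listed here concern effects that differ between lines. The genes were chosen with their Nrf1 CKO values known, so differences that involve the Nrf1 CKO effect are descriptions and support nothing. Trem2 differed by 4.62 between the Nrf1 CKO effect (4.15) and the Nrf2 KO effect (−0.47), and Spp1 by 1.18 between the same effects (0.96 and −0.23). For both genes each Nrf1 CKO liver lay above the mean of its controls and each Nrf2 KO liver below the mean of its own, and the difference was not tested. Cd63 differed by 2.83 between the Nrf1 CKO effect (1.98) and the Keap1 KD effect (−0.85), with all 3 Nrf1 CKO livers above and all 3 Keap1 KD livers below their own controls; this difference was not tested. The Trem2 effect was 1.97 higher in Keap1 KD (1.51) than in Nrf2 KO livers (−0.47), with a limma adjusted p of 0.0374 for the difference itself.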

How the results depend on the processing

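In Nrf1 CKO livers 4 of the 9 genes were called, 3 among probes above background on all 18 arrays (Gpnmb not tested there), 2 with slide as a fixed block, and 4 to 6 with 1 array left out; the Trem2 difference stayed between 3.63 and 4.54. Over all genes the calls numbered 3348, but 2117 without a filter on background, 65 with slide as a block and 939 to 4160 with 1 array left out. The Gpnmb difference was 1.81 after normexp. The uncalled Ccr2 difference of −0.28 changed sign, to 1.24 with slide as a block and to 0.64 without Nrf1 control 1. In Nrf2 KO livers 0 of the 9 were called under every setting (0 to 0 with 1 array left out). In Keap1 KD livers the count of 1 became 0 after normexp (Trem2 1.04, adjusted p = 0.0663), in a fit of the line's own arrays (1.51, adjusted p = 0.0756), with slide (1.07, 0.393) or scan date (1.26, 0.194) as a block, and was 0 to 1 with 1 array left out. There, calls over all genes numbered 979, but 52 in the line's own fit, 55 with slide, 255 with scan date, 504 after normexp, 555 after quantile normalization, 615 without a filter, 439 among probes above background on all arrays, and 350 to 1048 with 1 array left out. For the difference of the Keap1 KD and Nrf2 KO effects the count of 1 became 0 after quantile normalization (Trem2 1.98), after normexp (1.32), without a filter (1.97), with the mean of probes (1.91) and with a block for slide (2.14) or scan date (2.51), and was 0 to 1 with 1 array left out (Trem2 1.71 to 2.19). Over all genes 548 differences were called, but 276 after quantile normalization, 222 after normexp, 157 without a filter, 320 among probes above background on all arrays, 27 with slide, 80 with scan date and 175 to 652 with 1 array left out. Nrf2 KO calls over all genes ran from 6 to 22, beside 11. The share of calls that were higher was 42.3% in Nrf1 CKO and 17.2% in Keap1 KD livers, but 55.1% and 27.4% after quantile normalization, 53.8% and 27.6% after normexp, and 35.3% and 48.8% with array-median scaling; for the difference it was 32.5%, against 50.4%, 57.2% and 72.2% in these settings. The cause of these changes was not tested. In the Nrf2 KO and Keap1 KD comparisons 32 uncalled values near 0 changed sign. In Nrf2 KO these were Gpnmb 0.15 (quantile), Tyrobp −0.027 (median scaling), Lgals3 −0.018, Cd9 −0.45, Cd63 −0.21 and Ccr2 −1.28 (slide), and Lgals3 −0.043, Cd9 −0.46, Cd63 −0.18 and Ccr2 −1.22 (scan date). In Keap1 KD they were Itgax 0.004 and Tyrobp −0.071 (quantile), Lgals3 0.066, Cd9 0.28 and Itgax 0.16 (median scaling), Tyrobp −0.091 (normexp), Tyrobp −0.08 and Ccr2 −0.53 (slide), and Tyrobp −0.02 and Ccr2 −0.58 (scan date). With 1 array left out, Tyrobp ran from −0.13 to 0.16 and Gpnmb from −0.38 to 0.001 in Nrf2 KO, and Ccr2 from −0.32 to 0.45, Cd9 from −0.26 to 0.20, Itgax from −0.31 to 0.15 and Tyrobp from −0.15 to 0.15 in Keap1 KD. The replicate block, in which numbers do not pair the samples, gave 4, 0, 1 and 1 called members in the 3 mutant comparisons and the difference. No Nrf2 KO array shared a slide or scan date with an Nrf2 control, so batch and group cannot be told apart within that line. Gpnmb was above background on 4 of the 18 arrays, which limits what can be said of it.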
